A study of Mus musculus with 60 samples.

Results

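Polycomb group genes were followed in the nascent RNA of E14 mouse embryonic stem cells after knockdown of Esrrb, an orphan nuclear receptor of the naive pluripotency network. The 34 genes were picked by symbol, 11 of Polycomb repressive complex 2 (PRC2), 21 of Polycomb repressive complex 1 (PRC1) and 2 of the deubiquitinase PR-DUB, out of 24260 symbols in the deposited files. For each symbol the transcript with the highest RPKM (a read level per gene length and library depth) summed over the libraries was taken. No difference between the groups entered that choice of transcript. The genes themselves were chosen with earlier results of these data known. The groups were E14 cells that received an siRNA to Esrrb (siEsrrb) and E14 cells that received a control siRNA (siCtrl), with 2 libraries each, named replicate 1 and replicate 2. Both groups were grown on gelatin in medium with serum and LIF, transfected with the same lipid reagent and harvested 72 h later. Both are 1 cell line, and the labels name no sorting for uptake of the siRNA. RNA was taken from the chromatin pellet, which is rich in transcripts still being made, and turned into stranded libraries after removal of ribosomal RNA. No label gives the replicates separate cultures, and the design text leaves nascent RNA-seq out where it speaks of biological replicates, so every p reflects library-to-library spread alone, which may be technical.

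Polycomb complexes keep developmental genes silent through marks on histones. PRC2 methylates lysine 27 of histone H3 through its catalytic subunits EZH1 or EZH2, held by the core subunits EED and SUZ12. PRC1 ubiquitinates histone H2A through RING1 or RNF2 (RING1B) joined to 1 of a family of PCGF proteins; canonical PRC1 carries a CBX protein that reads methylated H3K27 and a PHC protein that compacts chromatin, while variant PRC1 carries RYBP or YAF2 instead. PR-DUB, made of BAP1 and an ASXL cofactor, removes ubiquitin from H2A. In embryonic stem cells PRC2 is needed for orderly differentiation more than for self-renewal.

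Depth was recovered from the RPKM. It was 22363943 and 61857158 reads in siEsrrb replicates 1 and 2, and 24764879 and 68002338 reads in siCtrl replicates 1 and 2, so the replicate 2 libraries counted more reads of each of the 34 Polycomb genes. The replicate numbers also differed in the tools named in the submitters' processing notes. Comparisons were therefore given within each replicate number as well, on RPKM scaled per library (factors of 0.925 to 1.09). The targeted gene was lower in both siEsrrb libraries. Esrrb (NM_011934) had 1.50 and 2.08 scaled RPKM in siEsrrb replicates 1 and 2, against 3.39 and 3.10 in siCtrl replicates 1 and 2. That is 44.2% and 67.0% of control within replicate numbers 1 and 2, with a log2 fold change of -0.72 (SE 0.15). The adjusted p was 0.281 by limma. A part of the nascent Esrrb signal was thus still there, and these libraries do not give the level of mature Esrrb mRNA or protein. Of the 10 embryonic stem cell markers all passed the minimum level, and their summed scaled RPKM was 124 and 112 in siEsrrb, against 134 and 129 in siCtrl. Differentiated lineage markers summed to 23.4 and 17.1 scaled RPKM in siEsrrb, against 15.1 and 11.4 in siCtrl, and fibroblast markers to 14.5 and 16.8 in siEsrrb, against 14.2 and 16.4 in siCtrl, with the fibroblast gene Lum listed at 0. The part of these cell type markers in the values of the Polycomb genes was not tested. In bulk RNA, fewer cells of a type and less RNA per cell cannot be told apart.

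Promoter windows are shown for members whose nascent RNA lay apart between the groups and on which the comparisons turn, so that their letters can be set beside the values. The windows run from 250 bases before to 50 bases after the annotated start (RefSeq, GRCm38.p6), are written 5′ to 3′ on the gene's strand, and were available for 31 of the 34 genes in 44 windows. Capitals mark matches, on either strand, to the E2F letters TTTNNCGC or to the E-box letters CACGTG; the matches shown do not overlap each other. The first 4 are PRC2 genes and the last 2 PRC1 genes; they lie at chr6:47594981-47595280 (Ezh2, minus strand), chr11:79992856-79993155 (Suz12, plus strand), chr7:89980927-89981226 (Eed, minus strand), chr5:108065424-108065723 (Mtf2, plus strand), chr11:97699599-97699898 (Pcgf2, minus strand) and chr17:34024631-34024930 (Ring1, minus strand).
Ezh2: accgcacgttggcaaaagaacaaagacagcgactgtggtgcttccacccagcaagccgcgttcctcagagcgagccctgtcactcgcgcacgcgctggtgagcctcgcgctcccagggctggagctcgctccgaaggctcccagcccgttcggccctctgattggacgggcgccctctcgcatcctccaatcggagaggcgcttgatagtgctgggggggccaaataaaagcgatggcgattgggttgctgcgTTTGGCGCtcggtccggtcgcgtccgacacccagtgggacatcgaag
Suz12: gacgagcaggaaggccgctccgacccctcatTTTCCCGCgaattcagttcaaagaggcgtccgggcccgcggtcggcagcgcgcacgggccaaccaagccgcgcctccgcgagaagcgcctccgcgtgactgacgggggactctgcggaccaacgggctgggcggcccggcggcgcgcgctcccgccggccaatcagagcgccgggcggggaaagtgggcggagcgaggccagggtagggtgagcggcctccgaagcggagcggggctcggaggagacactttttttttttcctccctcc
Eed: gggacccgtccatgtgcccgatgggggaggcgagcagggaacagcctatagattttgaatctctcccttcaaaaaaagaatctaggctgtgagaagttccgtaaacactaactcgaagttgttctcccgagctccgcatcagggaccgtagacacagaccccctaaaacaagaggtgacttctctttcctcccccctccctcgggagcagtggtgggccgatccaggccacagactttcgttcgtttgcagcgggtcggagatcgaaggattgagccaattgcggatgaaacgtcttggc
Mtf2: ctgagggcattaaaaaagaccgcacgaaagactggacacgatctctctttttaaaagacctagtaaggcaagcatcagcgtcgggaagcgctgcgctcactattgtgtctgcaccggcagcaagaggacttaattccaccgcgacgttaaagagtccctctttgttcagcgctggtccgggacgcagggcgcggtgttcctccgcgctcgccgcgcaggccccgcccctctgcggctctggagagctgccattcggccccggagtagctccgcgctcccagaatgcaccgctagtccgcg
Pcgf2: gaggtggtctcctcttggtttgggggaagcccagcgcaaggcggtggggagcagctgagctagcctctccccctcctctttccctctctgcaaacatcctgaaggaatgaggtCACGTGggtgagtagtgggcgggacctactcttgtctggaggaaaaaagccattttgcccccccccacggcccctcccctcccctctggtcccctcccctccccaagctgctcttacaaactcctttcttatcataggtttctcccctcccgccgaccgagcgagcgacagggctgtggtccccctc
Ring1: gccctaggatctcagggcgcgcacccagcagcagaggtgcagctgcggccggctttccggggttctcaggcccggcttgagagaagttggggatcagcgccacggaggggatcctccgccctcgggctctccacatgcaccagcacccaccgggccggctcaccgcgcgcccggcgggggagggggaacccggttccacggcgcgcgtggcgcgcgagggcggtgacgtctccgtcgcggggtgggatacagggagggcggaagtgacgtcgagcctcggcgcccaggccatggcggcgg

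The estrogen-related receptor element TNAAGGTCA, the letters that Esrrb is known to bind, was found in 0 of the 44 windows of these genes and in 1.28% of 32851 promoter windows of the annotation. The E2F letters stood in 4 of 44 windows, those of Ezh2, Suz12, Phf19 and Asxl1, and in 5.17% of all windows. In Suz12 the match began 219 bases before the start and in Ezh2 3 bases after it. The E-box letters stood in 9 of 44 windows, those of Pcgf2 and Phc2 among them, and in 7.15% of all windows. In Phc2 the match lay in the window of a longer transcript and not in that of the transcript compared here. The windows of these genes held a median of 23 CpG dinucleotides, against a median of 7 over all windows. A match is a run of letters and not a binding site, and a window without one says nothing of binding elsewhere.

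In siEsrrb most PRC2 genes were lower than in siCtrl and PRC1 genes lay on both sides, but no Polycomb gene passed the test across all genes without a replicate block. By limma on log2(scaled RPKM + 0.5), 0 of 9758 genes tested passed an adjusted p of 0.05 (0%), and the lowest adjusted p of any gene was 0.247. At an unadjusted p under 0.05 there were 1098 genes (11.3%), of which those higher in siEsrrb made up 5.92% and those lower 5.33% of all tested; limma's voom on recovered reads also called 0. Voom with the replicate number as a block did call genes, 2766 of 9758 (28.3%) and 14 of the 27 Polycomb genes tested. No label says that libraries of one number belong together. Depth and the processing tools named did differ by number, and libraries of one number deviated from their group means together (r = 0.386 across genes). The block was kept as an alternative setting. Of the 34 Polycomb genes 27 had a mean of at least 0.5 RPKM and were tested, 0 passed the adjusted threshold with a lowest adjusted p of 0.405, and 4 had an unadjusted p under 0.05. Those 4 were Eed, Mtf2 and Pcgf2, lower in siEsrrb, and Ring1, higher in siEsrrb. With a library left out 1 to 2 of the 27 had such a p, 2 without siEsrrb replicate 2 and 1 without each of the others. Both siEsrrb libraries lay above both siCtrl libraries for 6 of the 27 and below them for 9, against 21.8% and 22% of all genes tested (43.8% in either direction). The median log2 fold change of the 27 was 0.02, against -0.0010 over all genes tested. The fold change had the same sign in both replicate numbers for 24 of the 27. Genes that lie apart have this by definition. The share over all genes tested was not taken, so the count does not set Polycomb genes off from others.

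**Figure D1:**
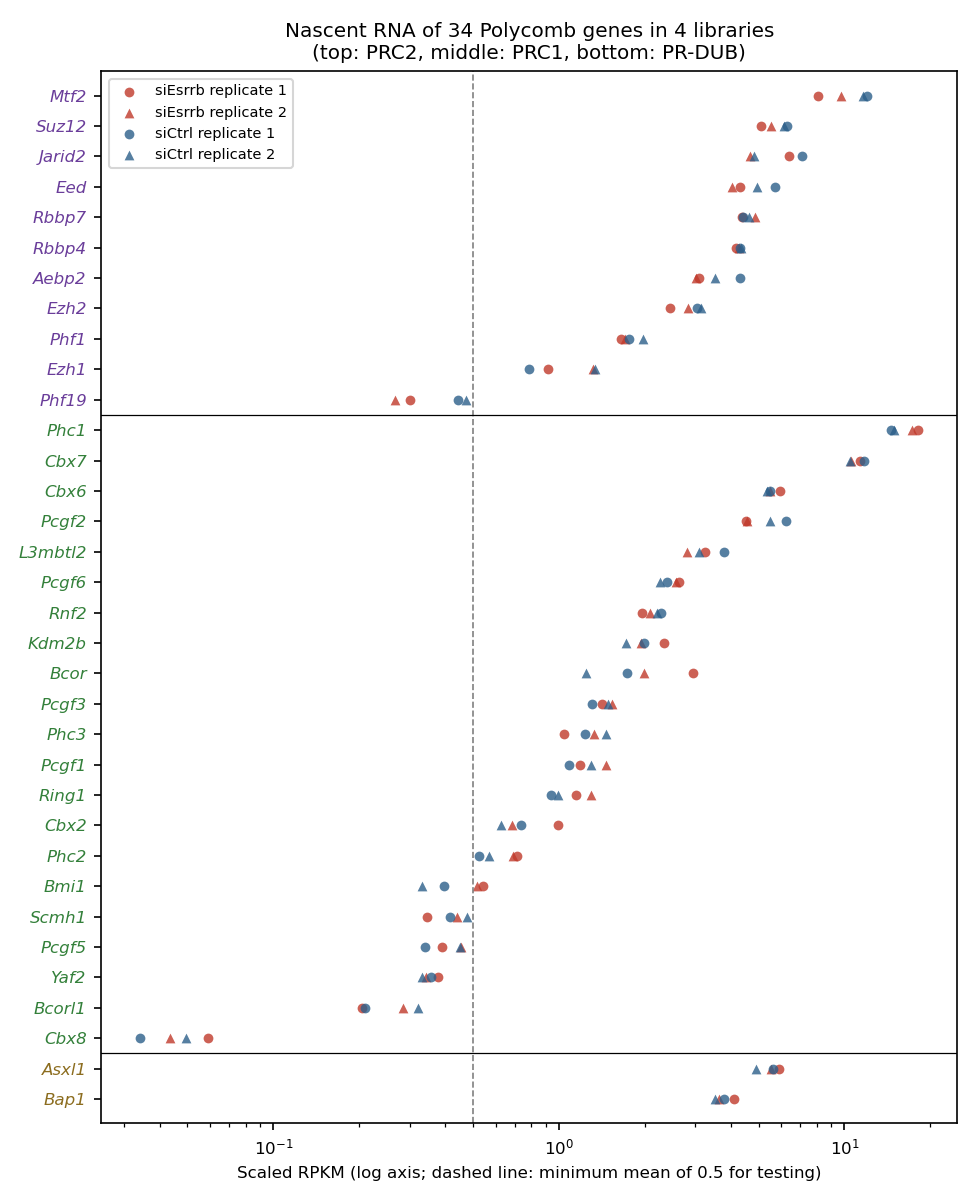
Scaled RPKM (log axis) of the 34 Polycomb genes in each library, ordered by level within PRC2 (top), PRC1 (middle) and PR-DUB (bottom); red symbols are siEsrrb, blue symbols siCtrl, circles replicate 1 and triangles replicate 2. Levels run from Cbx8, under 0.1 RPKM, to Phc1, above 14.5 in every library, and Mtf2, Suz12, Eed and Aebp2 have both red symbols left of both blue ones.

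RPKM is a level per length, so the genes could be ranked, each over its span of highest RPKM. The rank depends on that choice: Phc2 lay below the minimum of 0.5 RPKM over its longer spans. Phc1 ranked first with a mean of 16.2 RPKM over the libraries as deposited, above 98.3% of the 21334 genes with a read in any library. Cbx7, above 97.5% of these genes, and Mtf2, at 10.4 RPKM, followed. Within PRC2 the catalytic subunit Ezh2 (2.89) stood below its partners Suz12 (5.80), Eed (4.75), Rbbp7 (4.58) and Rbbp4 (4.29), all as mean RPKM of 4 libraries. Cbx8, a chromodomain reader, was last at 0.0465 RPKM, with 2 to 9 reads per library. Only 7 of the 33 neighbouring pairs in the order had libraries that did not overlap, among them Phc1 over Cbx7, Mtf2 over Suz12 and Bcorl1 over Cbx8. The median level was 4.29 RPKM for PRC2 genes and 1.28 for PRC1 genes.

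Of the PRC2 core genes, Eed, Suz12 and Ezh2 had both siEsrrb libraries below both siCtrl libraries, at 75.5% to 90.2% of control, while Rbbp4 and Rbbp7 lay between 96.9% and 105% of control. Ezh2 (NM_001146689), the main H3K27 methyltransferase of embryonic stem cells, had 2.45 and 2.84 scaled RPKM in siEsrrb replicates 1 and 2, against 3.04 and 3.15 in siCtrl replicates 1 and 2. The groups did not overlap, with 80.6% and 90.2% of control in replicate numbers 1 and 2 and a log2 fold change of -0.20 (SE 0.09, adjusted p = 0.536); siEsrrb replicate 2 lay close to the controls, and without siEsrrb replicate 1 the log2 fold change was -0.11. Eed (NM_021876), the subunit that reads trimethylated H3K27, had 4.30 and 4.05 scaled RPKM in siEsrrb, against 5.69 and 4.94 in siCtrl. Both siEsrrb libraries were below both siCtrl libraries, and Eed had the largest difference of the core, a log2 fold change of -0.31 (SE 0.11, adjusted p = 0.423). Suz12 (NM_001163018), the scaffold on which the complex is built, had 5.10 and 5.54 scaled RPKM in siEsrrb, against 6.28 and 6.15 in siCtrl. Here too the groups were apart, at 81.1% and 90.0% of control and a log2 fold change of -0.21 (SE 0.09, adjusted p = 0.513). As deposited, without scaling, Eed and Suz12 stayed apart and Ezh2 did not.

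Ezh1 (NM_007970), the methyltransferase more typical of resting cells, had 0.913 and 1.32 scaled RPKM in siEsrrb, against 0.789 and 1.34 in siCtrl. Its groups overlapped, the replicate numbers differed more than the groups, and the log2 fold change was 0.06 (SE 0.23, adjusted p = 0.946). The histone-binding subunits Rbbp4 and Rbbp7, which also serve other chromatin complexes, had log2 fold changes of -0.03 (SE 0.08) and 0.02 (SE 0.09). The difference in Rbbp4 was small even though its libraries were apart after scaling, at 96.9% and 98.5% of control. Ezh2 made up 72.9% and 68.3% of the summed Ezh1 and Ezh2 RPKM in siEsrrb, against 79.4% and 70.2% in siCtrl, and these shares overlapped.

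The accessory genes of PRC2 all had negative fold changes. Mtf2 (NM_001253877), the Polycomb-like subunit that helps PRC2 reach CpG islands, had 8.05 and 9.70 scaled RPKM in siEsrrb, against 11.95 and 11.63 in siCtrl. The lower value was that of siEsrrb replicate 1, both siEsrrb libraries were below both siCtrl libraries, and the log2 fold change was -0.40 (SE 0.13, adjusted p = 0.416). Aebp2 (NM_001005605), a zinc finger subunit of the PRC2.2 form, had 3.10 and 3.02 scaled RPKM in siEsrrb, against 4.29 and 3.53 in siCtrl. The groups were apart, with siCtrl replicate 1 the highest, at a log2 fold change of -0.30 (SE 0.12, adjusted p = 0.453) and of -0.18 without that library. Its partner Jarid2 was the most deeply read of the 34, with 25094 to 67457 reads per library, and differed more between replicate numbers than between groups, at a log2 fold change of -0.09 (SE 0.25). Phf1, a paralog of Mtf2, had -0.12 (SE 0.08). The third paralog, Phf19, was below the minimum for testing. It had 0.301 and 0.266 scaled RPKM in siEsrrb, against 0.442 and 0.471 in siCtrl, from 125 to 701 reads, and its groups were apart at 68.0% and 56.4% of control.

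**Figure D2:**
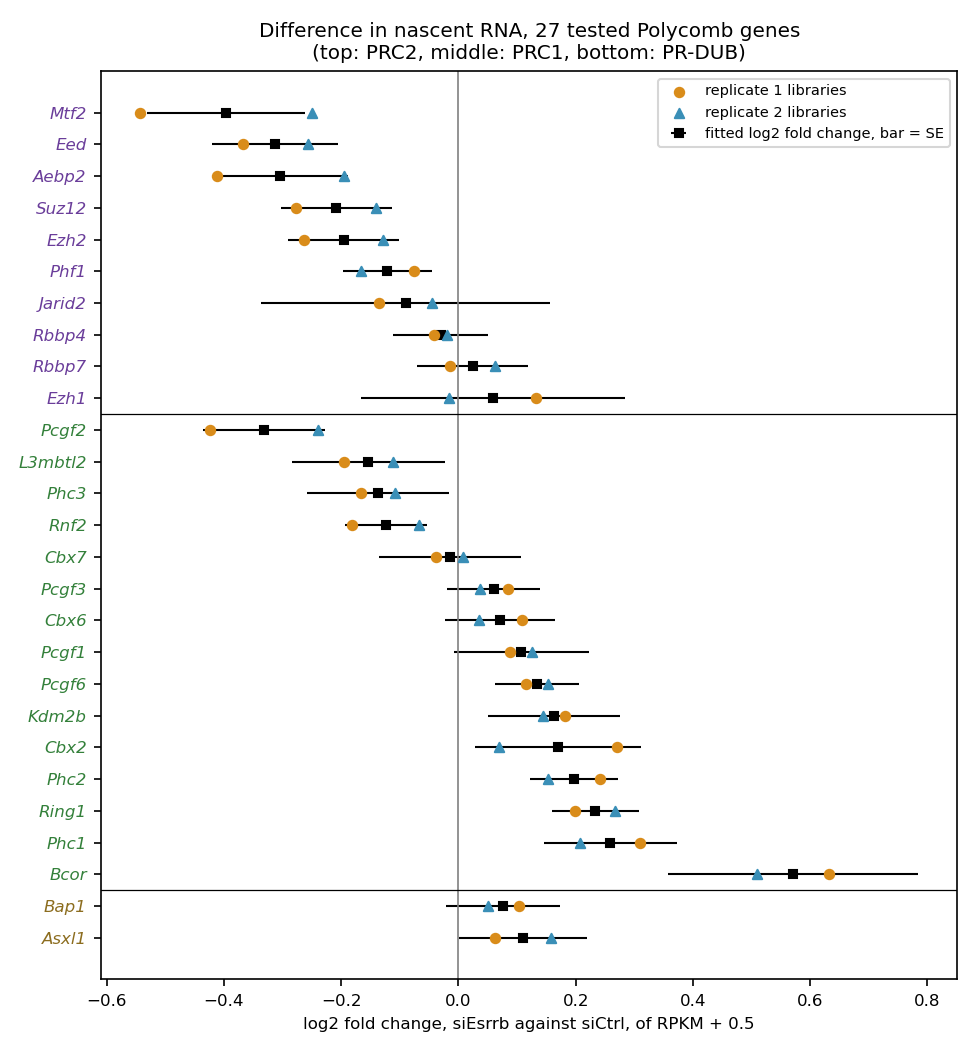
Log2 fold change of siEsrrb against siCtrl for the 27 tested Polycomb genes, by complex; black squares are fitted values with their standard error, orange circles the replicate 1 libraries alone and blue triangles the replicate 2 libraries alone. Of the 10 PRC2 genes, 8 lie left of 0; Bcor lies farthest right at 0.57 and Mtf2 farthest left at -0.40.

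Of PRC1, the pair of ubiquitin ligase genes lay apart in opposite directions. Ring1 (NM_009066) had 1.15 and 1.29 scaled RPKM in siEsrrb, against 0.937 and 0.989 in siCtrl. The groups were apart, at 123% and 131% of control and a log2 fold change of 0.23 (SE 0.07, adjusted p = 0.410). Ring1 is a short gene and rested on few reads, 92 and 328 in siEsrrb and 86 and 283 in siCtrl, so counting error alone was 10.4% in siEsrrb replicate 1 and 10.8% in siCtrl replicate 1; its groups overlapped in the RPKM as deposited. Rnf2 (NM_011277), the main ligase of embryonic stem cells, had 1.95 and 2.08 scaled RPKM in siEsrrb, against 2.28 and 2.201 in siCtrl, a log2 fold change of -0.12 (SE 0.07, adjusted p = 0.584). The ratio of Ring1 to Rnf2 needs no scaling between libraries. It was 0.590 and 0.621 in siEsrrb, against 0.412 and 0.449 in siCtrl, so Ring1 made up 37.1% and 38.3% of the pair in siEsrrb and 29.2% and 31.0% in siCtrl.

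Among the PCGF partners, which tell the PRC1 forms apart, Pcgf2 had the largest log2 fold change of the 4 tested. Pcgf2 (NM_001163307), a partner in canonical PRC1, had 4.53 and 4.55 scaled RPKM in siEsrrb, against 6.25 and 5.47 in siCtrl. Both siEsrrb libraries were below both siCtrl libraries, with the smallest p of the Polycomb genes tested, at a log2 fold change of -0.33 (SE 0.10, adjusted p = 0.405). Pcgf6, of the PRC1.6 form, was apart and higher in siEsrrb at 110% and 114% of control (log2 fold change 0.13, SE 0.07). The ratio of Pcgf2 to Pcgf6 was 1.72 and 1.77 in siEsrrb, against 2.61 and 2.41 in siCtrl. Pcgf1, of PRC1.1, and Pcgf3 overlapped between the groups, at 0.11 (SE 0.11) and 0.06 (SE 0.08). Bmi1 and Pcgf5 were below the minimum, and Pcgf5, at 114% and 101% of control, overlapped. Bmi1, the close paralog of Pcgf2, had 0.541 and 0.516 scaled RPKM in siEsrrb, against 0.397 and 0.332 in siCtrl, from 90 to 324 reads, and was apart in the other direction from Pcgf2. Of the summed RPKM of the 6 PCGF genes, Pcgf2 made up 42.3% and 41.0% in siEsrrb, against 53.1% and 48.4% in siCtrl, and Bmi1 5.05% and 4.66% in siEsrrb, against 3.37% and 2.94% in siCtrl.

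**Figure D3:**
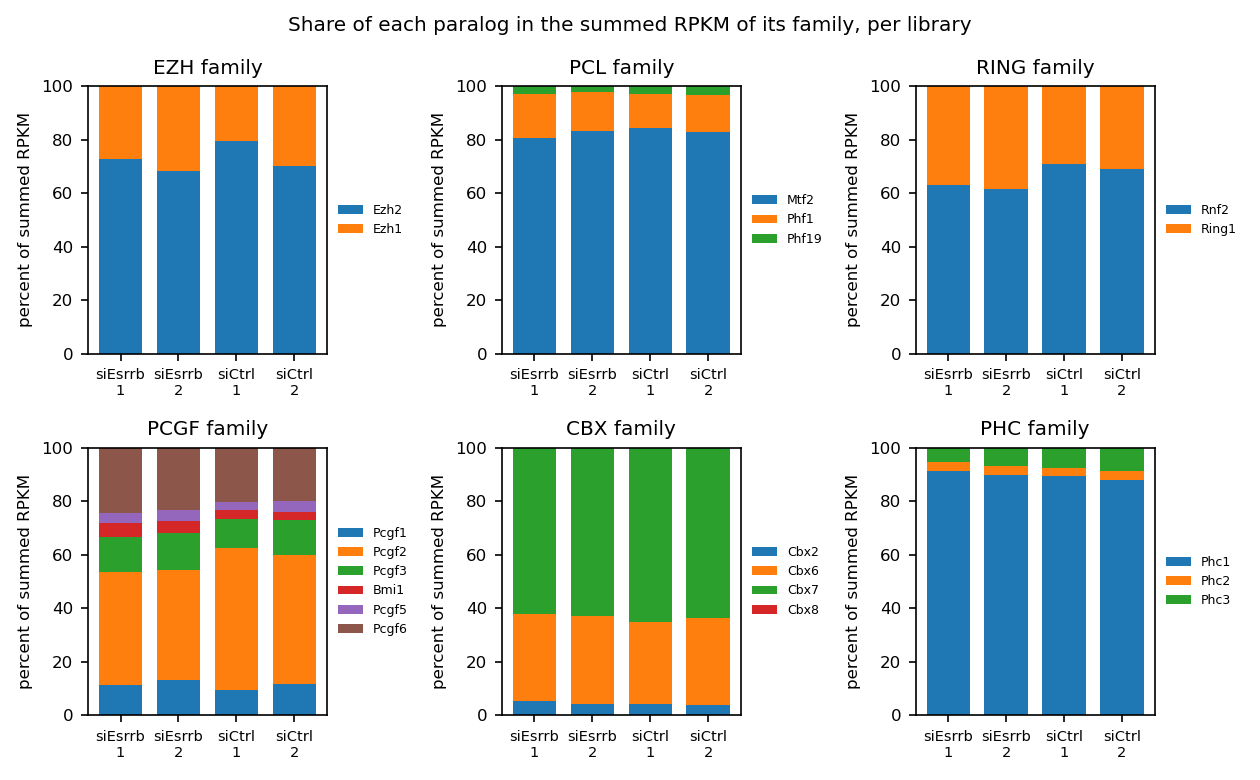
Percent of the summed RPKM of 6 families of paralogs that each gene takes, 1 bar per library (siEsrrb 1 and 2, then siCtrl 1 and 2). The Rnf2 and Pcgf2 shares are lower in both siEsrrb bars, the EZH shares overlap, and Mtf2, Cbx7 and Phc1 lead their families in every library.

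Subunits of canonical PRC1 outside the core lay on both sides, with Cbx6, Phc1 and Phc2 apart and above control in siEsrrb and 0 apart and below it. Phc1 (NM_001271579), a polyhomeotic protein whose SAM domain joins PRC1 units, had 18.1 and 17.3 scaled RPKM in siEsrrb, against 14.5 and 14.9 in siCtrl. The groups were apart, at 125% and 116% of control and a log2 fold change of 0.26 (SE 0.11, adjusted p = 0.500). Phc2 was apart in the same direction at 0.20 (SE 0.08) over its span of 25311 bases. Over its spans of 64144 and 98180 bases, which can share reads with the shorter one, it was apart and higher at 0.10 and 0.05. Its RPKM over these 2 spans was 0.232 to 0.335 and 0.182 to 0.254 across the libraries, below the minimum for testing. Phc3 overlapped at -0.14 (SE 0.12). Among the CBX readers, Cbx7, the main one of embryonic stem cells, overlapped at -0.01 (SE 0.12). Cbx6 was apart but close, at 108% and 103% of control, and Cbx2 overlapped at 0.17 (SE 0.14). Cbx8 had 0.0589 and 0.0433 scaled RPKM in siEsrrb, against 0.0342 and 0.0494 in siCtrl, which at 3 and 7 reads in siEsrrb and 2 and 9 in siCtrl allowed no comparison at this depth. Scmh1, a SAM domain protein, was below the minimum with overlapping groups, at 83.4% and 92.3% of control.

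In variant PRC1, Bcor had the largest fold change of the Polycomb genes tested. Bcor (NM_029510), the BCL6 corepressor and scaffold of PRC1.1, had 2.95 and 1.99 scaled RPKM in siEsrrb, against 1.73 and 1.25 in siCtrl. Both siEsrrb libraries were above both siCtrl libraries, and the replicate 1 libraries were the higher ones in each group. The log2 fold change was 0.57 (SE 0.21, adjusted p = 0.447), with 0.63 and 0.51 in replicate numbers 1 and 2 and 0.33 without siEsrrb replicate 1. The size depended on the transcript annotated: over 3 spans of Bcor, of 43816, 123618 and 25893 bases, the fold change was 0.57, 0.43 and 0.25, each apart and higher. Kdm2b, the subunit that takes PRC1.1 to unmethylated CpG islands, overlapped at 0.16 (SE 0.11) over its span of 29675 bases, and over the long span of 118428 bases it was apart at 0.29. Of 8 genes with several spans, 0 changed sign between them. Spans of one gene can overlap and count the same reads, so agreement between them is no independent check. L3mbtl2, of PRC1.6, had -0.15 (SE 0.13). Yaf2 and Bcorl1 were below the minimum, at 107% and 103%, and at 97.4% and 88.4% of control, and both overlapped. The PR-DUB genes Asxl1 and Bap1 overlapped, at 0.11 (SE 0.11) and 0.08 (SE 0.10).

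Set side by side, the complexes differed in their counts. Of the 10 PRC2 genes tested, 7 were apart and lower in siEsrrb and 0 apart and higher, against 22% and 21.8% of all genes tested. They were Ezh2, Eed, Suz12, Rbbp4, Aebp2, Mtf2 and Phf1, and without scaling between libraries Eed, Suz12, Aebp2 and Mtf2 stayed apart. Of the 15 PRC1 genes tested, 6 were apart and higher (Ring1, Pcgf6, Cbx6, Phc1, Phc2 and Bcor) and 2 apart and lower (Rnf2 and Pcgf2). Without scaling 5 PRC1 genes were apart and higher (Phc1, Phc2, Bcor, Cbx2 and Kdm2b) and 3 apart and lower (Pcgf2, Cbx7 and L3mbtl2). The shares of all genes apart without scaling were not taken, so these unscaled counts, PRC2 included, have no background beside them. The median log2 fold change was -0.16 for PRC2 genes, with -0.20 and -0.13 in replicate numbers 1 and 2, and 0.11 for PRC1 genes, with 0.11 and 0.07. The median over all genes tested was -0.0010. With a minimum of 2 RPKM the PRC1 median was -0.01, so its sign rested on the PRC1 genes of lower level, and without siEsrrb replicate 1 it was 0.059. The genes share the same 4 libraries and are not replicates of one another, and no test of the lists was made.

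The ratio of the summed RPKM of the 11 PRC2 genes to that of the 21 PRC1 genes needs no scaling either. It was 0.663 and 0.724 in siEsrrb, against 0.868 and 0.853 in siCtrl. The same held without the gene that weighs most in each sum: without Mtf2 the ratio was 0.533 and 0.557 in siEsrrb, against 0.661 and 0.641 in siCtrl, and without Phc1 0.940 and 1.03 in siEsrrb, against 1.16 and 1.17 in siCtrl.

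Core genes were set against accessory genes in the same way. Over both complexes the median log2 fold change was -0.0029 for 12 core genes and -0.0145 for 13 accessory genes. Within PRC2 it was -0.11 for the core and -0.21 for the accessory genes. Of these, 4 of 6 and 3 of 4 were apart and lower, against 22% of all genes tested. Within PRC1 the median was 0.08 for the core and 0.16 for the accessory genes. Of these, 2 of 6 and 4 of 9 were apart and higher, against 21.8% of all genes tested. Both PRC1 genes that were apart and lower, Rnf2 and Pcgf2, were core genes. These medians rested on single libraries. Without siEsrrb replicate 1 the medians were -0.058 for PRC2 core, 0.018 for PRC1 accessory and 0.040 for all core genes. Without siEsrrb replicate 2 they were -0.19 for PRC2 core, 0.0085 for PRC1 core, -0.086 for all core and 0.12 for all accessory genes. Without siCtrl replicate 1 they were -0.20 for PRC2 core, 0.0057 for PRC1 core, -0.072 for all core and 0.087 for all accessory genes. Without siCtrl replicate 2 they were -0.38 for PRC2 accessory, 0.077 for PRC1 accessory, 0.016 for all core and -0.045 for all accessory genes.

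**Figure D4:**
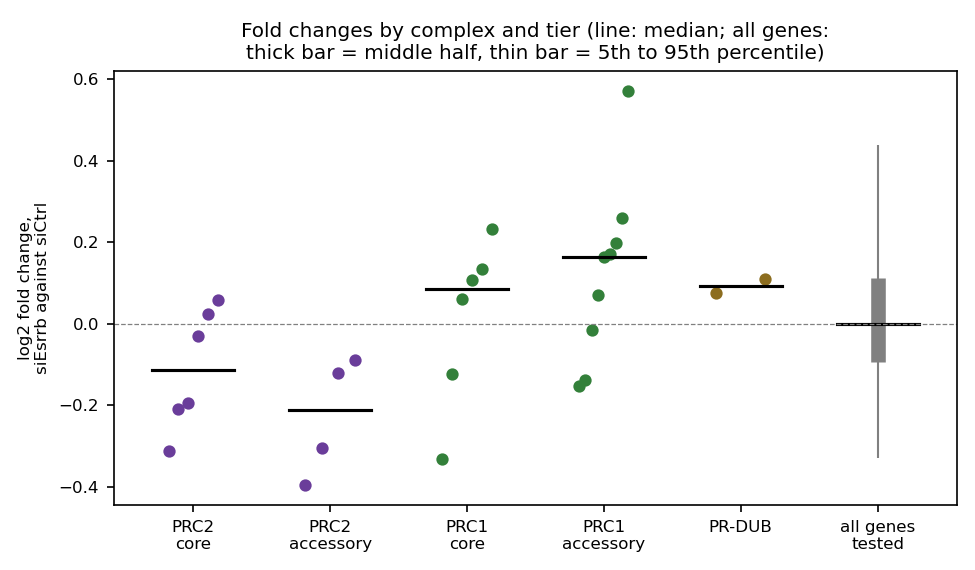
Log2 fold change of siEsrrb against siCtrl for each tested gene, by complex and by core or accessory role, with the median as a line; the grey bars give the quartiles (thick) and the 5th to 95th percentile (thin) of the 9758 genes tested. The PRC2 medians of -0.11 and -0.21 lie below 0 and the PRC1 medians of 0.08 and 0.16 above it, and all genes but Mtf2, Pcgf2 and Bcor fall within the thin grey bar, which runs from -0.33 to 0.44.

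Other genes tied to Polycomb were read from lists chosen by name. Of 29 further Polycomb subunits and partners tested, 3 were apart and higher in siEsrrb and 11 apart and lower (21.8% and 22% of all genes tested), with a median log2 fold change of -0.08 and 0 past the adjusted threshold. The smallest p values among them belonged to Wdr5 at -0.37 (SE 0.09), a subunit shared with Trithorax complexes, to Fbrsl1 at -0.27 (SE 0.10), and to Max at -0.26 (SE 0.09), a partner in PRC1.6. Of 19 H3K27 demethylase and Trithorax genes tested, whose products oppose Polycomb, 3 were apart and higher and 7 apart and lower, beside the same shares of all genes, with a median of 0.05. Rbbp5, a core subunit of the H3K4 methyltransferases, had 1.79 and 2.198 scaled RPKM in siEsrrb, against 3.02 and 2.99 in siCtrl (log2 fold change -0.49, SE 0.11, adjusted p = 0.287), and Pagr1a had 0.25 (SE 0.08).

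Developmental genes that Polycomb is known to hold silent in embryonic stem cells were hardly transcribed in either group. Of 67 such genes 64 were below the minimum of 0.5 RPKM, 4 (Neurog2, Evx2, Hoxa9 and Wnt1) were listed at 0 in every library, and the median level was 0.0229 RPKM. Their summed scaled RPKM was 7.08 and 6.64 in siEsrrb, against 5.47 and 5.81 in siCtrl.

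Markers of cell state lay on both sides. Of the 10 embryonic stem cell markers 5 were apart and lower in siEsrrb, 1 apart and higher and 4 overlapped. Over all genes tested 22% were apart and lower and 21.8% apart and higher. The median log2 fold change of the 10 markers was -0.08. Zfp42, Dppa5a, Fgf4 and Nanog, markers of naive and pluripotent cells, had log2 fold changes of -0.85, -0.62, -0.67 and -0.47. The gene that was apart and higher, named after its values were seen, was Pou5f1, at 0.42 (SE 0.19) and 169% and 108% of control. Tdgf1 was apart and lower at -0.08. Lin28a, Sall4, Utf1 and Sox2 overlapped, at 0.47, 0.23, 0.13 and -0.08. Of the 5 differentiated lineage markers tested, 2 were apart and higher in siEsrrb and 0 apart and lower, beside the same shares of all genes. Nes, an intermediate filament gene of neural progenitors, had 5.92 and 5.31 scaled RPKM in siEsrrb, against 3.02 and 2.66 in siCtrl. Sox1 had a log2 fold change of 0.38 (SE 0.11). Krt8 and Krt18 overlapped at 0.54 and 0.50, and Pax6 overlapped at -0.09. Of the 3 fibroblast markers tested, Acta2 was apart and higher at 0.44 (SE 0.09). None of these passed the adjusted threshold by limma.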

How the data were processed

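Nascent RNA-seq of 4 libraries was analysed (siEsrrb and siCtrl, 2 each); the other 56 of 60 samples were not analysed here. The authors deposited RPKM per RefSeq transcript (34929 transcripts) on mm9. CASAVA 1.4 and TopHat2 appear in the submitters' processing notes for all 4, Bowtie 1.1.1 and Bowtie2 for replicate 1 alone. How reads were counted, and whether by strand, is not given in the sources used here; a gene's reads may thus include those of antisense or overlapping genes. A series table equals the replicate 1 values at 34929 transcripts and added nothing. Symbols came from GRCm38.p6 (34631 transcripts, 298 without). Reads were recovered from the RPKM, whole within 0.01 read for 31759 of 31771 transcripts above 0; lengths span introns, reads of a few genes may be understated by a common factor, and counting errors cover counting alone.

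RPKM were scaled by median-of-ratios factors, a pseudocount of 0.5 was added, and log2 values of the 9758 genes with a mean of at least 0.5 RPKM were compared with limma 3.58.1 (R 4.3.3; 2 groups, mean-variance trend, two-sided, Benjamini-Hochberg, threshold 0.05), which was tested on simulated data. Fold changes are siEsrrb over siCtrl on that scale, which understates those of low genes; percent of control carries no pseudocount. An exact permutation test of 2 against 2 cannot go below p = 0.333. Groups are called apart when both libraries of one lie above both of the other on scaled RPKM. Tables and figures used Python 3.11.15, pandas 2.3.3 and matplotlib 3.10.9.

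The members and lists were chosen with earlier results of these data known. By rule, each library's value is given for Ezh1, Ezh2, Eed, Suz12, Ring1 and Rnf2, members with an unadjusted p under 0.05, the 6 with the largest fold change, and the highest and lowest of each complex; Phf19 and Bmi1 outside the fit follow the same form. Of other genes, Esrrb and up to 4 per list with an unadjusted p under 0.05 are named. A gene that this rule takes is not reported here. Alternatives were other pseudocounts, minimum levels, scalings and transcripts, a replicate block, limma's voom on recovered reads, and each library left out.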

Additional observations from a re-analysis of the deposited data

How the results depend on the processing

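With 2 libraries a group, 0 genes passed the adjusted threshold under the other pseudocounts, minimum levels, scalings and transcript choice and under voom without a block, and 0 of the Polycomb genes passed under those settings or with any library left out. Over all genes 12 passed without siEsrrb replicate 2, 2 without siCtrl replicate 1, and 0 without either other library (range 0 to 12); the lone library of a group is then assumed to vary like the others. No label ties the replicate numbers to a culture or batch, though depth and the processing tools named differed by number. Libraries of one number deviated from their group means together (r = 0.386 across genes, 2 pairs). With the replicate block limma called 0 genes and gave 2557 an unadjusted p under 0.05, against 1098 without it; of the Polycomb genes 12 had one. Voom on recovered reads with a replicate block called 2766 of 9758 genes (28.3%) and 14 of 27 Polycomb genes. Those 14 were 5 PRC2 genes, all lower, and 9 PRC1 genes, 3 lower and 6 higher. By that fit 15 of the 27 had an unadjusted p under 0.05, against 3652 of all 9758 genes. Polycomb genes with an unadjusted p under 0.05 numbered 4 of 27 here. Without a minimum level they numbered 7 of 34, and with voom 7 of 27. Over all genes the counts were 1098 of 9758 here, 2018 of 21334 without a minimum level and 1193 of 9758 with voom.

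Median log2 fold changes moved as follows. With 0.1 RPKM as pseudocount the medians of PRC1 and of its core were 0.14 and 0.11, and with 1 RPKM that of the PRC1 core 0.066. Without a minimum level they were 0.060 for PRC1, -0.29 for PRC2 accessory, 0.029 for PRC1 accessory and 0.034 for all core genes. With a minimum of 2 RPKM they were -0.015 for PRC1, -0.20 for PRC2 core, -0.30 for PRC2 accessory, -0.12 for PRC1 core, 0.028 for PRC1 accessory, -0.16 for all core and -0.090 for all accessory genes. Without scaling they were 0.077 for PRC1, 0.052 for its core, -0.042 for all core and -0.056 for all accessory genes; the median of all genes was then -0.03. With upper-quartile scaling the PRC1 core median was 0.090, and with the transcript of most reads that of all accessory genes -0.051. With voom PRC1 and its core were at 0.16 and 0.12, and with voom and the block PRC2, PRC1 and the PRC1 core at -0.21, 0.16 and 0.12.

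With a library left out the medians ranged from -0.20 to -0.13 for PRC2, 0.059 to 0.12 for PRC1, -0.20 to -0.058 for PRC2 core, -0.38 to -0.18 for PRC2 accessory, 0.0057 to 0.11 for PRC1 core, 0.018 to 0.21 for PRC1 accessory, -0.086 to 0.040 for all core and -0.045 to 0.12 for all accessory genes. PRC2 genes apart and lower numbered 7, and 4 without scaling. PRC1 genes apart and higher numbered 6, and 3 with a minimum of 2 RPKM. The shares of all genes apart without scaling or with that minimum were not taken. The causes of these differences were not tested. Of the tested Polycomb genes 21 kept one direction under all these settings and 6 did not. Rbbp7 was at -0.015 without scaling. With a library left out Ezh1 ranged from -0.20 to 0.31, Rbbp7 from -0.042 to 0.090, Jarid2 from -0.35 to 0.17, Pcgf1 from -0.0023 to 0.22, Pcgf3 from -0.0050 to 0.13 and Cbx7 from -0.092 to 0.063.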
